A study of Mus musculus with 2 samples.

Results

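The genes described here encode the nuclear subunits of the mitochondrial respiratory chain and of ATP synthase, in the thymus of mice that carry a Pla2g10 transgene. Pla2g10 encodes a phospholipase A2 of group X, which is secreted and cleaves a fatty acid from membrane phospholipids. The members are all transcripts on the array whose gene name begins with Nduf, Uqcr or Atp5, with Sdh followed by a letter from a to d, or with Cox followed by a digit from 4 to 8, except Cox8b. This rule used names only. It found 82 genes, of which 79 were measured, among 9397 genes measured in all. A gene counts as measured where its probe stood well above background in at least 1 genotype on both arrays, and the brightest probe stands for the gene. Of the 79, 78 were well above background in all 4 channels, that is, in both genotypes on both arrays.

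Total RNA came from the thymus of 6-month-old Pla2g10-Tg/+ mice on a C57BL/6 background and from littermates as controls, both fed a standard chow. Each genotype was represented by RNA pooled from 4 mice, and both genotypes were hybridised together on 2 two-colour Agilent arrays. On array 1 the transgenic pool carried Cy5 and the control pool Cy3, and on array 2 the dyes were exchanged. The promoter that drives the transgene and the tissue in which it is active are not given in the sources used here. The labels do not say whether the arrays hold separate pools, so they were treated as a dye swap of 1 pool per genotype. On that assumption the spread between arrays is technical, and every SD below is over 2 arrays of the same pools. If the pools were separate, the SDs would also hold variation between animals. No test across animals was possible.

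The inner mitochondrial membrane holds 5 enzyme complexes. Complex I oxidises NADH and complex II oxidises succinate, and both pass electrons through coenzyme Q to complex III, which hands them on to cytochrome c. Complex IV, cytochrome c oxidase, passes them to oxygen. The proton gradient built along the way drives complex V, the ATP synthase. Most subunits are encoded in the nucleus and a minority in mitochondrial DNA. In the thymus most cells are thymocytes, which pass through proliferating and resting stages.

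No large change of these genes was seen. All values below compare the transgenic with the control pool as log2 ratios, so that 1 is a 2-fold difference and positive values are higher in the transgenic pool. None of the 79 measured members differed at least 2-fold, where 3 of the 9397 measured genes did upwards (0.0319%) and none downwards (0%). A gene is called higher or lower below where its ratio was at least 0.2 the same way on each array. By that rule 1 member, Atp5l, was higher, against 281 of all measured genes (2.99%), and no member was lower, against 220 of all (2.34%). The median ratio over the members was 0.0097, against -0.0023 over all measured genes. Single members ran from -0.18 for Uqcrc1 to 0.32 for Atp5l. A mean ratio within 0.2 of 0 was found for 96.2% of the members and for 87.9% of all genes, and within 0.1 of 0 for 60.8% and 59.8%. The members were brighter, with a median log2 intensity of 9.38 against 7.15 over all measured genes. Among the 1537 genes in the middle brightness range of the members, 3.12% were higher and 4.42% lower, with a median ratio of -0.015. Normalization within each array centres the bulk of genes near 0, so a shift of all transcripts together would not appear in these ratios.

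**Figure D1:**
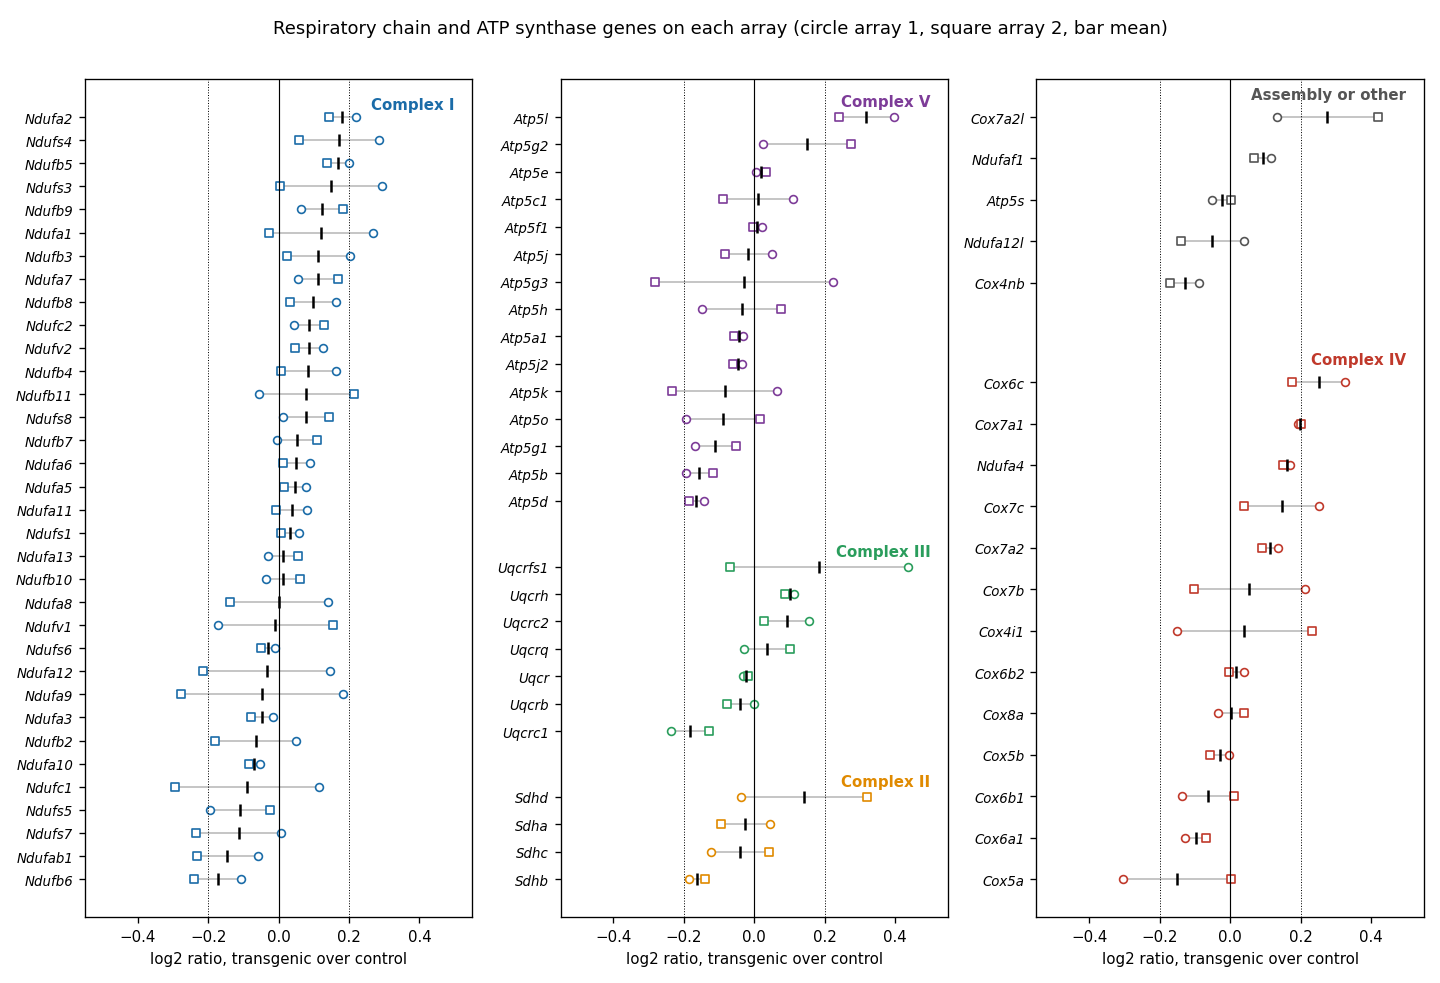
Each line is 1 of 78 measured members, grouped by complex; circles give the log2 ratio (transgenic over control) on array 1, squares that on array 2, and black bars their mean, with dotted lines at -0.2 and 0.2. Only Atp5l has both symbols past a dotted line on the same side, and 33 have their symbols on opposite sides of 0.

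The arrays often disagreed on the sign of a member. The ratio was above 0 on both arrays for 27 members (34.2%, against 28.3% of all measured genes) and below 0 on both for 19 (24.1%, against 29.1%). The other 33 had opposite signs on the arrays. Among the 1537 genes in the middle brightness range of the members, 24.8% were above 0 on both arrays and 30.6% below. Across the 79 members the ratios of the arrays correlated weakly (Pearson's r 0.134, Spearman's rho 0.153), less than across all measured genes (0.311 and 0.240). This is a description across genes that share the same 2 arrays, not a test. The median SD between arrays was 0.093 for the members and 0.090 for all measured genes. Among 17 members with more than 1 measured probe, 5 had probes on both sides of 0, and probes of a member differed by at most 0.13.

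**Figure D2:**
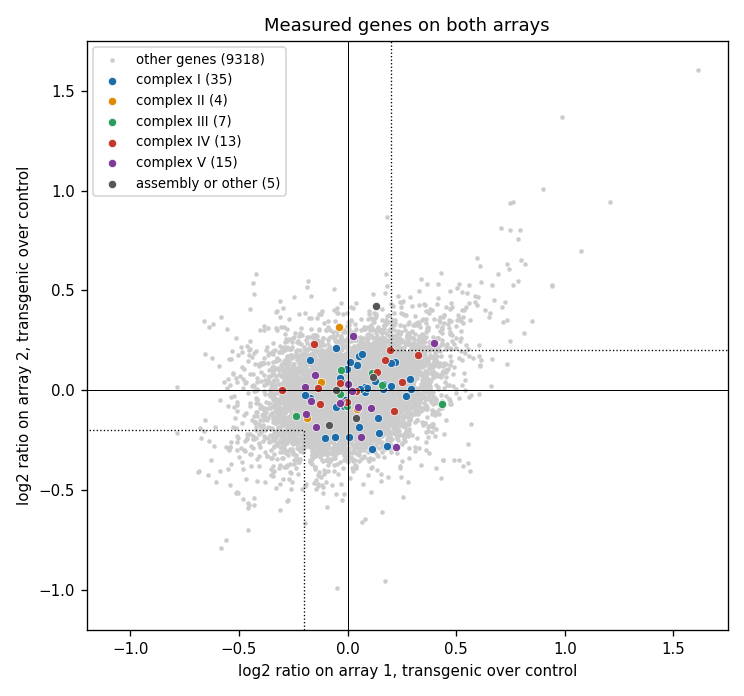
Each point is a measured gene, with its log2 ratio (transgenic over control) on array 1 on the horizontal axis and on array 2 on the vertical axis; grey points are the remaining measured genes and coloured points the 79 members by complex. The members lie around the origin within the grey cloud, and 1 of them, Atp5l of complex V, is inside the dotted corner that marks 0.2 on both arrays.

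The labelled tissue was checked against marker genes, since a pool with other proportions of cells would shift every gene that differs between them. Of 11 thymocyte genes 10 were well above background in both pools, with Cd4 close to the floor and Rag2 not measured. Of the 10, 5 were lower in the transgenic pool (50%, against 2.34% of all measured genes). Among them were Cd8a at -0.51 ± 0.00 (SD, n = 2 arrays) and Rag1 at -0.31 ± 0.04. Their other measured probes gave means of -0.56 and -0.19 for Cd8a and of -0.24 and -0.35 for Rag1. The Rag1 probe at -0.24 had ratios of -0.50 and 0.03. The median over the 10 was -0.26, with -0.23 on each array. Of the 10, 7 were below 0 on both arrays and 2 above. Those above were Cd3d (0.03 ± 0.03) and Cd4 (0.02 ± 0.00), and Cd3e had opposite signs (-0.08 and 0.06). Of 8 white adipocyte genes, Fabp4 (0.78 ± 0.04) and Lpl (0.38 ± 0.03) were well above background in both pools and were higher. Cfd (adipsin) and Cidec were well above background in the transgenic pool only. They could therefore enter only as higher genes, with Cfd at least 2.97-fold higher and Cidec at least 1.23-fold. The other 4 were not measured. Haemoglobin and erythroid genes were also higher, 3 of 3 measured (against 2.99% of all measured genes), with Hbb-bt at 1.18 ± 0.27. Of 5 measured thymic epithelial genes 2 were higher (40%, against 2.99%), Krt5 at 0.68 ± 0.10 and Krt14 at 0.33 ± 0.14. None of 14 muscle genes was measured. In bulk tissue, fewer cells of a type and less RNA per cell cannot be told apart, and the part that these shifts have in the values of the members was not tested. The only array probe for Pla2g10 was not well above background in any of the 4 channels, so it does not check the genotype labels.

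Complex I, the NADH dehydrogenase, had the most members, and all 35 were measured. None was called higher or lower. Its median ratio was 0.037, with 0.059 on array 1 and 0.0069 on array 2, and its members ran from -0.17 to 0.18. The ratio was above 0 on both arrays for 15 of them, below 0 on both for 7 and of opposite sign for 13. The 3 highest by mean were each 0.2 or more on array 1 and under it on array 2. Ndufa2, an accessory subunit, had normalised log2 intensities of 9.89 and 9.85 in the transgenic pool (arrays 1 and 2) and 9.67 and 9.71 in the control pool. Its ratios were 0.22 and 0.14. Ndufs4, an accessory subunit needed for late assembly of the complex, had ratios of 0.29 and 0.06. Ndufb5, a subunit of the membrane arm, had ratios of 0.20 and 0.14.

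At the low end of complex I stood Ndufb6, another membrane arm subunit, with intensities of 8.59 and 8.49 in the transgenic and 8.70 and 8.73 in the control pool. Its ratios were -0.11 and -0.24. Ndufab1, the mitochondrial acyl carrier protein, which also serves fatty acid and lipoic acid synthesis, followed with -0.06 and -0.23. Ndufs7, which holds an iron-sulphur cluster close to the coenzyme Q site, had ratios of 0.01 and -0.24. The 7 measured catalytic core subunits had a median of 0.033 and the 28 accessory subunits 0.042. Within the core, Ndufs3 had the highest mean (0.15 ± 0.20), with ratios of 0.29 on array 1 and 0.01 on array 2. The core subunits Ndufs1 (0.03 ± 0.04), Ndufv2 (0.09 ± 0.06) and Ndufs8 (0.08 ± 0.09) were above 0 on both arrays. Ndufv1, which binds NADH, had opposite signs (-0.17 and 0.15).

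Complex II, succinate dehydrogenase, is the only one of the 5 with all subunits encoded in the nucleus, and it also works in the citric acid cycle. All 4 genes were measured and none was called. Sdhb, the iron-sulphur subunit, was the only one below 0 on both arrays. Its intensities were 8.34 and 8.39 in the transgenic pool and 8.52 and 8.53 in the control pool. Its mean ratio was -0.16 ± 0.03. Sdha, the flavoprotein that oxidises succinate, lay near 0 (-0.03 ± 0.10). Both membrane anchors were below 0 on array 1 and above 0 on array 2. Sdhc had -0.12 and 0.04 (mean -0.04 ± 0.12), and Sdhd had -0.04 and 0.32. The median of complex II was -0.033, over 4 genes of which 3 changed sign between arrays.

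Complex III takes electrons from coenzyme Q to cytochrome c, and its 7 members named by the rule were all measured, with none called. Uqcrc1, a core subunit on the matrix side, had the lowest mean of all members. Its intensities were 9.26 and 9.37 in the transgenic pool and 9.5 on both arrays in the control pool. The ratios of -0.24 and -0.13 passed 0.2 on array 1 only (mean -0.18 ± 0.08). Its other probe was also below 0 (-0.11). The partner core subunit Uqcrc2 was above 0 on both arrays (0.09 ± 0.09). Uqcrfs1, the Rieske iron-sulphur protein, showed the largest disagreement between arrays in the complex, with 0.44 on array 1 and -0.07 on array 2. The hinge protein gene Uqcrh was at 0.10 ± 0.02, and Uqcrb (-0.04 ± 0.05) and Uqcr (-0.02 ± 0.01) were close to 0. The complex median was 0.035 for the mean ratio, although each array alone gave a median just under 0 (-0.0017 and -0.017). Cytochrome c1, the subunit that reduces cytochrome c, is encoded by Cyc1, a name outside the rule. Cyc1 was lower by the call. It had intensities of 8.23 and 8.18 in the transgenic and 8.49 and 8.43 in the control pool, and a ratio of -0.25 ± 0.01.

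Complex IV members included tissue-restricted isoforms, and 13 of 16 were measured. Cox4i2, Cox6a2 and Cox8c, isoforms known from lung, striated muscle and testis, were not well above background in any channel. None of the 13 was called. The median was 0.041, with 0.040 and 0.038 on the arrays, and 5 members were above 0 on both arrays, 2 below and 6 of opposite sign. Cox6c, a small subunit of the membrane part, came closest among the abundant ones. Its intensities were 10.96 and 10.94 in the transgenic pool and 10.63 and 10.76 in the control pool. The ratios were 0.33 and 0.18. Ndufa4, named for complex I but since assigned to complex IV, had 0.17 and 0.15. Cox5a, a subunit on the matrix side, had the lowest mean, with -0.30 on array 1 and 0.00 on array 2. Cox6a1, the widely expressed form of subunit 6a, followed at -0.10 ± 0.04. Cox6b1, the widely expressed form of subunit 6b, was at -0.06 ± 0.10, and its testis form Cox6b2 at 0.02 ± 0.03. Cox4i1, the widely expressed form of subunit 4, had opposite signs (-0.15 and 0.23).

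Cox7a1, the form of subunit 7a known from heart, skeletal muscle and brown fat, fell just short of the call. It was a dim probe, with intensities of 6.56 and 6.50 in the transgenic and 6.37 and 6.30 in the control pool. The transgenic values were above the control values on both arrays, with ratios of 0.19 and 0.20 (mean 0.20 ± 0.01). Its mean was 0.48 with an offset of 0 in place of 50 in the background correction and 0.60 in the software's own ratios, and it was called in both. The widely expressed form Cox7a2 was at 0.11 ± 0.03. Cox8b, the fat and muscle form of subunit 8 that the rule leaves out, was higher, with 0.56 on array 1 and 0.44 on array 2. Its mean was 2.08 with an offset of 0 and 2.03 in the software's own ratios. Its control channels were not well above background, and its level in the transgenic pool was at least 1.23-fold higher. That bound is the mean of the transgenic channel over the higher of the control value and the lowest signal well above background. The widely expressed Cox8a was at 0.00 ± 0.05. Of the 7 brown adipocyte genes listed, Cox8b and Cidea were measured, both through the transgenic pool alone, so that neither could have come out lower. The bound for Cidea was at least 1.59-fold higher. The mean of Cidea was 0.73 in the main run, 2.05 with an offset of 0 and 2.70 in the software's own ratios. Elovl3 (0.03 ± 0.09), Dio2 (0.04 ± 0.06), Prdm16 (-0.10 ± 0.00) and Ppargc1a (0.03 ± 0.12) were not measured. Ucp1, the defining gene of brown fat, was well above background in 1 of 4 channels only, with ratios of 2.35 and 0.41, and was not counted as measured. The muscle genes, where Cox7a1 and Cox8b are also known, were all not measured (14 of 14).

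**Figure D3:**
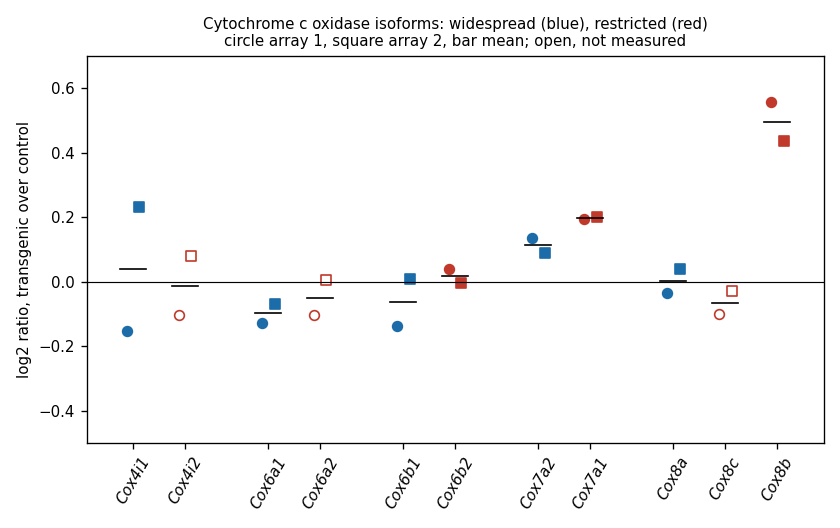
The vertical axis gives the log2 ratio (transgenic over control) of cytochrome c oxidase isoforms. Circles mark array 1, squares array 2 and bars the mean. Blue marks the widely expressed form and red the restricted forms. Open symbols mark genes not counted as measured. Cox8b (0.56 and 0.44), Cox7a1 (0.19 and 0.20) and the widely expressed Cox7a2 (0.14 and 0.09) lie above 0 on both arrays. Cox6a1 is below 0 on both, while Cox8a, Cox4i1, Cox6b1 and the restricted Cox6b2 have 1 array on each side. Cox8b was well above background in the transgenic pool only, so it could enter only as higher.

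Complex V consists of the catalytic F1 head and the membrane-bound Fo part with its stalks, and all 15 members were measured. Its median was -0.036, with 0.0037 on array 1 and -0.057 on array 2, and the members ran from -0.16 to 0.32. The ratio was above 0 on both arrays for 3 members, below 0 for 5 and of opposite sign for 7. Atp5l, which encodes subunit g of the Fo part, was the only member of any complex called higher. Its single probe lies at chr9:44671628-44671687 of build mm8. Its intensities were 9.73 and 9.63 in the transgenic pool and 9.34 and 9.39 in the control pool. The ratios were 0.40 and 0.24 (mean 0.32 ± 0.11). At a call limit of 0.3 on each array it was not called. Atp5k, which encodes subunit e next to subunit g, had 0.06 on array 1 and -0.23 on array 2.

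The F1 subunits had a median of -0.044 over 5 genes. Atp5b, the catalytic beta subunit, had intensities of 11.59 and 11.54 in the transgenic and 11.78 and 11.66 in the control pool, and a ratio of -0.16 ± 0.05. The mean ratio of each of its 3 probes was below 0 (-0.16, -0.19 and -0.29). Atp5d, the delta subunit, was at -0.16 ± 0.03 and had the lowest mean of complex V. Atp5a1, the alpha subunit, was at -0.04 ± 0.02, and Atp5c1, the gamma subunit of the rotor, at 0.01 ± 0.14. Atp5e, the epsilon subunit, was at 0.02 ± 0.02. Atp5o, the stalk subunit OSCP, had -0.20 and 0.02. Subunit c of the proton-carrying ring comes from 3 genes that give the same mature protein, and they went apart: Atp5g1 was at -0.11 ± 0.08, Atp5g2 at 0.15 ± 0.18 and Atp5g3 at -0.03 ± 0.36. Atp5g3 changed sign with the dyes (0.22 and -0.28) and was the only member to reach 0.2 in the dye direction on both arrays. These genes have near-identical copies and processed pseudogenes, so their probes can share signal.

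The order of the complexes by median was IV (0.041), I (0.037), III (0.035), II (-0.033) and V (-0.036). These differences are small against the spread within a complex, where the middle of the members ran from -0.048 to 0.092 in complex I and from -0.087 to 0.0089 in complex V (quartiles). The order was not the same on the arrays: complex I was highest on array 1 and complex IV on array 2, and complex II was lowest on array 1 and complex V on array 2. With median centring of each array in place of the loess curve, the medians of complexes I, III and IV were below 0 (-0.013, -0.021 and -0.012), beside an all-gene median of -0.035.

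The rule also takes in 5 genes that are no subunits. Cox7a2l, which helps to join complexes III and IV, was the highest of them, with intensities of 9.13 and 9.22 in the transgenic and 9.0 and 8.8 in the control pool. Its ratios were 0.13 and 0.42 and passed 0.2 on array 2 only. Ndufaf1, an assembly factor of complex I, was at 0.09 ± 0.04. Ndufa12l, now named Ndufaf2, was at -0.05 ± 0.13 and Atp5s at -0.02 ± 0.04. Cox4nb, a neighbour of Cox4i1 now named Emc8, was at -0.13 ± 0.06. A further 10 genes carry subunit or assembly factor names today but had other names on the array, and 8 of them were measured. Among them, Uqcr10 of complex III was at 0.12 and Atp5mpl of complex V at 0.15, and none was called.

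Genes around the respiratory chain were taken as lists of carriers, assembly factors and regulators. Cycs, which encodes the cytochrome c that carries electrons from complex III to complex IV, was lower. Its intensities were 9.54 and 9.58 in the transgenic and 9.90 and 9.80 in the control pool, and its ratio was -0.29 ± 0.09. Its other 2 probes were also below 0, at -0.16 and -0.15. Together with Cyc1, 2 of 11 measured genes of the electron carrier list were lower (18.2%) and none higher, against 2.34% and 2.99% of all measured genes. The list median was -0.052. The inner membrane carriers Slc25a3, for phosphate, and Slc25a5, an ADP/ATP exchanger, were at -0.28 ± 0.36 and -0.18 ± 0.23, each near 0 on array 2. The 2 highest of the list were Etfa, which feeds electrons from fatty acid oxidation, at 0.10 ± 0.02 and Atpif1, the inhibitor of ATP synthase, at 0.08 ± 0.24. The 13 subunits encoded in mitochondrial DNA were not found by name on the array and were not analysed here.

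The list of complex IV assembly factors held the largest ratios, around a median of -0.017. Of its 16 measured genes 1 was higher (6.25%, against 2.99% of all measured genes) and 2 were lower (12.5%, against 2.34%). Cox17, which delivers copper to the enzyme, had intensities of 12.42 and 12.26 in the transgenic and 13.11 and 12.67 in the control pool. It was lower at -0.55 ± 0.20, while its second probe gave -0.16. Coa3, which acts early in the making of the Cox1 subunit, was lower at -0.25 ± 0.01. Cox19, another copper factor, was at -0.17 ± 0.06. Cox16, which takes part in copper loading of subunit 2, was higher at 0.39 ± 0.22, but its 4 probes split into 0.39 and 0.42 against -0.03 and -0.09. Cox18, an insertase for subunit 2, was at 0.12 ± 0.00.

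No gene of the remaining lists was called. Of the complex I assembly factors 10 of 15 were measured under the listed name (Ndufaf2, given above under its older name, is not among them), with a median of 0.040, from Ndufaf3 (-0.16 ± 0.07) and Ndufaf6 (-0.06 ± 0.17) to Ndufaf1 (0.09 ± 0.04) and Ndufaf7 (0.10 ± 0.09). Of the assembly factors of complexes II, III and V 10 of 13 were measured, with a median of 0.014. Bcs1l, which inserts the Rieske protein, was lowest there at -0.20 ± 0.04 and Tmem70 next at -0.05 ± 0.07, and Sdhaf1 and Uqcc3 were highest at 0.12 ± 0.05 and 0.12 ± 0.09. Coenzyme Q synthesis had 6 of 13 genes measured and a median of 0.083, from Coq5 (-0.14 ± 0.01) and Coq9 (-0.02 ± 0.01) to Coq8b (0.10 ± 0.05) and Coq7 (0.14 ± 0.13). The citric acid cycle had 16 of 17 measured and a median of -0.036. Ogdh (-0.19 ± 0.03) and Mdh2 (-0.16 ± 0.02) were lowest, and Dld (0.09 ± 0.03) and Sucla2 (0.09 ± 0.28) highest.

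No regulator of mitochondrial gene expression was called. Of 14 measured genes 11 were below 0 on both arrays and 1 above, against 29.1% and 28.3% of all measured genes, and their median was -0.082. Tfam, which packages and transcribes mitochondrial DNA, had the lowest mean, with -0.44 and -0.15, although its second probe gave 0.05. Pprc1, a coactivator of the PGC-1 family, was at -0.24 ± 0.12 and the transcription factor Yy1 at -0.22 ± 0.10. Tfb2m, a mitochondrial transcription factor, was highest at 0.13 ± 0.12, and Polg2 was at 0.03 ± 0.10. Nrf1, which activates many respiratory chain genes, was also at 0.03 ± 0.05, and Ppargc1a was not measured.

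**Figure D4:**
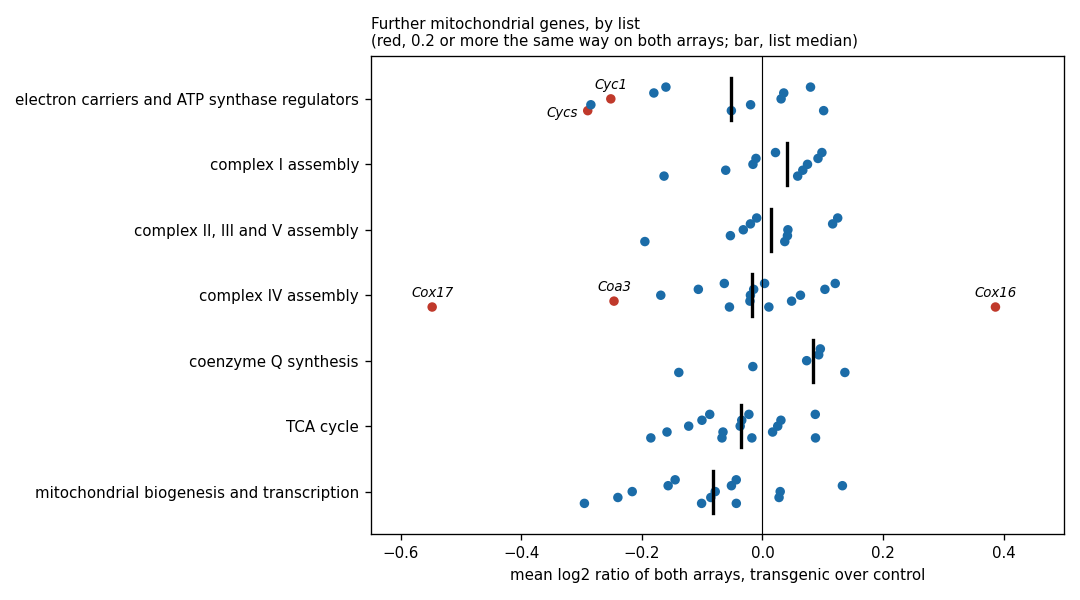
Each point is a measured gene of 7 further mitochondrial lists, placed by its mean log2 ratio over both arrays (transgenic over control), with red for genes at least 0.2 the same way on each array and black bars for list medians. The called genes are Cycs (-0.29), Cyc1 (-0.25), Cox17 (-0.55), Coa3 (-0.25) and Cox16 (0.39), and the biogenesis list has the lowest median (-0.082).

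Promoter windows were read from RefSeq for the subunit genes, to show what the members share beside their function. Each window runs from 250 bases before the gene's start to 50 after it (GRCm38.p6), and 63 of 77 subunit genes had at least 1, giving 68 windows. The letters CGCANGCG, the core of the NRF1 site, were sought on both strands. They stood in 39.7% of the member windows (24 genes) and in 8.21% of all 32851 windows. The YY1 letters AAGATGGC stood in 14.7% against 2.75%, and the GABP letters CCGGAAGT in 7.35% against 3.89%, each on both strands. The member windows were richer in G and C (median 58% against 52.7%), and no account was taken of this. The 24 measured members with the NRF1 letters had a median ratio of -0.021 and the 39 without them 0.018.

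The windows of the highest member, the lowest member and the fat and muscle form Cox7a1 are printed up to 30 bases past the start, 5′ to 3′ on the gene's strand, with matches to the 3 sets of letters in capitals. They lie at chr9:44920713-44920992 (minus strand) for Atp5l, at chr9:108936398-108936677 (plus strand) for Uqcrc1 and at chr7:30183921-30184200 (plus strand) for Cox7a1, all of GRCm38.p6.
Atp5l: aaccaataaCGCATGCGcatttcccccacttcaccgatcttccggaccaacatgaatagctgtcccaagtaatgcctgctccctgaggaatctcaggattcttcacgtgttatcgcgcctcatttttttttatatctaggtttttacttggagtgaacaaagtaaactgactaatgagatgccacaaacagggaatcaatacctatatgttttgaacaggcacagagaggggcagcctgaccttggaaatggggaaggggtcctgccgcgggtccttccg
Uqcrc1: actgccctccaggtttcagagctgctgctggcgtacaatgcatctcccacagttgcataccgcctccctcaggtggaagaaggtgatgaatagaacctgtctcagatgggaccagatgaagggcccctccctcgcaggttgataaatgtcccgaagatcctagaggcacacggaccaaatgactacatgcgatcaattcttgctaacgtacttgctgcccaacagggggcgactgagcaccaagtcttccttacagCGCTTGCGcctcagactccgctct
Cox7a1: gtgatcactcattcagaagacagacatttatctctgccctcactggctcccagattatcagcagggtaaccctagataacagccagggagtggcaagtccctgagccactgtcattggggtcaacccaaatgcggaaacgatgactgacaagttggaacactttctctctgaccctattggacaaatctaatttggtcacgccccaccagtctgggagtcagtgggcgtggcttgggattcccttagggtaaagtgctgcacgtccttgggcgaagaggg
Atp5l holds 1 match, far from its start, and Uqcrc1 holds a match from base 7 after its start and another from base 32, past the printed end. Cox7a1 holds none of the letters in this window. Atp5l, the highest member, and Uqcrc1, the lowest, both hold the NRF1 letters, at unlike distances from the start. Whether the letters bear on the ratios was not tested.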

How the data were processed

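RNA of thymus pooled from 4 mice per genotype was compared on 2 two-colour arrays, with labelling from 500 ng of RNA, per the labels. That both arrays hold the same pool of each genotype was assumed and is not stated by the labels. The deposited scanner files give for each spot the mean and local background intensity, which per the file headers come from Feature Extraction 9.5.1.1. The software's log10 ratio of processed red to green signal is deposited too. The deposited p-value of each ratio, from the software's error model per the file headers, was not used. The deposited series table holds the same log10 ratios within 5e-10, neither turned nor centred (medians -0.113 and -0.101). Further steps of the authors are not given in the sources used here.

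Mean signals were corrected by normexp (offset 50) and normalized with a loess curve per array, in which control spots (2256 of each array, beside 41534 transcript spots) and outlier spots (46 and 37) had weight 0 (limma 3.58.1, R 4.3.3). Array 2 was multiplied by -1. Before that, the loess-normalized red to green ratios of both arrays had a correlation of -0.271 over 11302 spots bright in all 4 channels, as dyes exchanged would give. This sign depends on the normalization. Under median centring in place of loess the arrays correlated at -0.454 over all genes after turning. Of 41174 probes 12235 passed the brightness rule. Intensities per channel are log2 values after loess and Aquantile scaling and are compared only within a gene. Saturated spots (2 and 1) were kept. The number of arrays limits the precision. The scripts were tested on simulated data.

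The members, gene lists and calls were chosen with earlier results of these data known. Named are called genes, the 3 highest and lowest members of each complex, isoforms, core subunits (1 member is not reported here by itself), and the 2 highest and lowest of each list, with a few further genes for context chosen after their values were seen. Names outside the member rule came from a RefSeq table (GRCm38.p6), and probe positions are mm8, so exon or UTR is not given. The alternatives were another offset, no background correction, median centring, the software's ratios, the series table, other brightness rules, the median of probes, saturated spots left out, other limits, single arrays and limma's moderated test.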

Additional observations from a re-analysis of the deposited data

How the results depend on the processing

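No member differed at least 2-fold under any alternative run. Atp5l was called higher except under median centring, at a limit of 0.3 and in limma's test, each of which called 0 members higher. The count of members higher was 3 with offset 0 and with the software's ratios or the series table (Atp5l, Cox7a1 and Ndufb5), 2 with no background correction (Atp5l and Cox7a1) and 7 at a limit of 0.1. Members lower numbered 1 with the software's ratios or the series table (Cox4nb) and 5 at a limit of 0.1. Of single arrays, which have no second array to check a call, 7 to 12 members passed upwards and 2 to 8 downwards, and 42 to 45 had a ratio above 0 and 34 to 37 below. With array 1 left out 7 members passed upwards (7.28% of all genes did) and 8 downwards (9.28%), and with array 2 left out 12 (14.2%) and 2 (11.2%).

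Under median centring the turned arrays correlated at -0.454 over all genes, 1 member was above 0 on both arrays and 0 below. The median over the members was then -0.039, and by complex -0.013 (I), -0.072 (II), -0.021 (III), -0.012 (IV) and -0.089 (V), beside -0.035 over all genes. The complex III median was 0.046 with offset 0. The complex IV median was 0.053 with offset 0, 0.043 with no background correction, 0.034 with the software's ratios or the series table, and 0.010 with no filter on dim probes, which adds 3 genes. On single arrays the median over the members was 0.0054 to 0.039, that of complex II -0.081 to -0.027, of complex III -0.017 to -0.0017 and of complex IV 0.038 to 0.040. The cause of these shifts was not tested. Over all measured genes the share higher and lower was 8.09% and 6.53% with offset 0, 9.29% and 7.42% with the software's ratios, and 0.213% and 0.106% under median centring. In the main run the means of Cox8b, Cidea, Cfd and Cidec, all dim in the control pool, were 0.50, 0.73, 1.61 and 0.44. With offset 0 they were 2.08, 2.05, 3.26 and 1.65. Limma's test took the ratios of both arrays as if independent, and with 1 pool per genotype, as assumed, it covers technical spread alone. It called 93 genes higher and 58 lower among all and 0 members. Of the members 4 had an unadjusted p under 0.05, and the smallest adjusted p of a member was 0.106 (limma, Benjamini-Hochberg). The sign of the main value held under all 11 alternatives for 41 of 79 members. These are not 11 separate checks. The single arrays are among them, so the 33 members with opposite signs on the arrays had to fail on 1 of them. The software's ratios and the series table hold the same values, and other brightness rules left the values of the measured members unchanged. Each ratio compares the genotypes within 1 array, so every ratio here is already paired by array. The intensities of single channels are not.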
